A study of Mus musculus with 6 samples.

Results

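The genes described here are 9 genes of the aldosterone-sensitive distal nephron: the epithelial sodium channel (ENaC) subunits Scnn1a, Scnn1b and Scnn1g, the mineralocorticoid receptor gene Nr3c2, the cortisol and corticosterone inactivating enzyme Hsd11b2, the ENaC regulators Sgk1 and Nedd4l, and the steroid-induced genes Tsc22d3 and Fkbp5. They were taken by symbol from the 33696 genes of the count matrices, and each of the 9 symbols was found. Kidneys of 6 male C57BL/6 mice, bought at an age of 8 to 10 weeks, were dissociated and sequenced as single cells with a droplet method that counts 3′ ends of transcripts as unique molecular identifiers (UMIs). The 3 DOCA-salt mice lost the left kidney, received a pellet with 50 mg of deoxycorticosterone acetate (DOCA, a mineralocorticoid receptor agonist) 1 week later, and drank 1% NaCl for 21 days. The 3 sham mice had sham surgery, no pellet and normal water, and kept both kidneys, so the nephrectomy, the steroid and the salt cannot be told apart. Both groups were unmodified mice, and each library came from 1 mouse. The question was how the receptor, its target genes and the channel changed in each kind of tubule cell.

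ENaC is the sodium entry pathway of the apical membrane in the late distal convoluted tubule, the connecting tubule and the collecting duct, and it is assembled from an alpha, a beta and a gamma subunit. Aldosterone binds the mineralocorticoid receptor, which enters the nucleus and raises transcription of target genes, among them the kinase gene Sgk1. The SGK1 kinase phosphorylates NEDD4L, a ubiquitin ligase that removes ENaC from the membrane, and so keeps the channel at the surface. HSD11B2 protects the receptor from glucocorticoids, which are far more abundant than aldosterone. Tsc22d3 encodes GILZ and Fkbp5 encodes a co-chaperone of steroid receptors, and both genes respond to glucocorticoid and mineralocorticoid receptors. Much of the control of ENaC acts on the protein, through cleavage, trafficking and degradation, and is not measured by mRNA counts.

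The positions below are those of the mouse assembly GRCm39 with GENCODE annotation. Scnn1g (chr7:121333545-121367755) and Scnn1b (chr7:121463946-121517737) lie on the same strand, 96190 bases apart, with 0 protein-coding genes between them, whereas Scnn1a lies on another chromosome (chr6:125297622-125321906). Sgk1 is shown first, as the classical steroid target among the 9 genes. The capitals mark a match to the palindromic steroid response element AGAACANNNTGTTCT, searched on both strands in the 10000 bases before each gene's annotated start. This stretch (chr10:21869585-21869629, plus strand) lies in an intron of longer Sgk1 transcripts and in no annotated exon, and its match begins 965 bases before the start of the canonical transcript.
Sgk1 element: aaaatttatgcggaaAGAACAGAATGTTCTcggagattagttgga
Such a match was present before 36 of 21421 protein-coding genes (0.168%), and before no other of the 9 genes. The 250 bases before the starts of Scnn1b, Scnn1g and Hsd11b2 are shown because these 3 genes shared a pattern of expression. In each case the window overlapped no annotated exon, and it is written in the direction of transcription, on the plus strand.
Scnn1b upstream, chr7:121463696-121463945: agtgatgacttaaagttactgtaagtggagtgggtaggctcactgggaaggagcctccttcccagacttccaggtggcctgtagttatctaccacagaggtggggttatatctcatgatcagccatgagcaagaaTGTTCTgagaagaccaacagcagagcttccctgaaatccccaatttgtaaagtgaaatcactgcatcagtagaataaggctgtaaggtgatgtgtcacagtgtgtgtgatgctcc
Scnn1g upstream, chr7:121333295-121333544: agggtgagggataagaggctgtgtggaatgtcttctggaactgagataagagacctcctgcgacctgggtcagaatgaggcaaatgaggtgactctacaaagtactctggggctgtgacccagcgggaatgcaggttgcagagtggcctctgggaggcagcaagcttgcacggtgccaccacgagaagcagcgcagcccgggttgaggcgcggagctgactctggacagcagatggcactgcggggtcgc
Hsd11b2 upstream, chr8:106245119-106245368: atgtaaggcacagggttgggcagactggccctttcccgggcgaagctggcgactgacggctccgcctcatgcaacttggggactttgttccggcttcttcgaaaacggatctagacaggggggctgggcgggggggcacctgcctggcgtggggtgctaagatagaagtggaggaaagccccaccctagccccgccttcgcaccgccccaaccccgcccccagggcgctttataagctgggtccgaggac
The capitals in the Scnn1b window mark the letters TGTTCT, the right arm of the palindrome, which end 109 bases before the start. These letters, searched on both strands, were found in 14.3% of all such windows (3058 of 21431), and the whole palindrome in 0 of them. A match of letters is a description and not a site of binding.

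The libraries held 11058 to 14449 barcodes and 93172739 to 137819127 UMIs, and 8245 to 10880 barcodes per mouse were kept after removal of those above 50% mitochondrial UMIs. Library pairs shared 18 to 41 barcodes. Sham mouse 2 stood apart: without it, more genes were called over the whole table in each of the 5 main sums (in thick ascending limb cells, 951 in place of 399). Cells were clustered and named by markers that did not include any of the 9 genes. Principal cells (PC, 107 to 214 per mouse), connecting tubule cells (CNT, 113 to 229), distal convoluted tubule cells (DCT, 148 to 322) and thick ascending limb cells (TAL, 518 to 882) carried their defining markers. For each mouse the UMIs of a cell type were added up, and a level is the count of a gene per 1000000 UMIs of that sum (CPM). The mouse was the replicate, so n = 3 per group throughout.

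In the sham mice, the 9 genes fell into different patterns over 15 cell types, as the map of mean levels shows. Scnn1b and Scnn1g were highest in CNT and PC. The mean level of Scnn1b was 472 ± 115 CPM (SD) in CNT and 435 ± 136 in PC, with overlapping mice, and then dropped to 152 ± 55.1 in type A intercalated cells without overlap. Scnn1g was at 364 ± 43.7 CPM in CNT and 272 ± 11.6 in PC, which did not overlap, and at 64.8 ± 16.5 in the pendrin-positive intercalated cells that followed. Hsd11b2 had the same leading pair, at 3217 ± 738 CPM in PC and 2995 ± 970 in CNT, and the next type, pendrin-positive intercalated cells, had 607 ± 68.8. Scnn1a was spread more widely along the distal nephron than the other subunits. Its mean levels were 381 ± 27.6 CPM in PC, 369 ± 18.6 in pendrin-positive intercalated cells and 367 ± 36.7 in CNT, which overlapped, followed by 312 ± 17.4 in type A intercalated cells, 267 ± 33.9 in DCT and 158 ± 18.3 in TAL. In TAL, Scnn1b and Scnn1g were at most 2.7 CPM in each sham mouse.

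**Figure D1:**
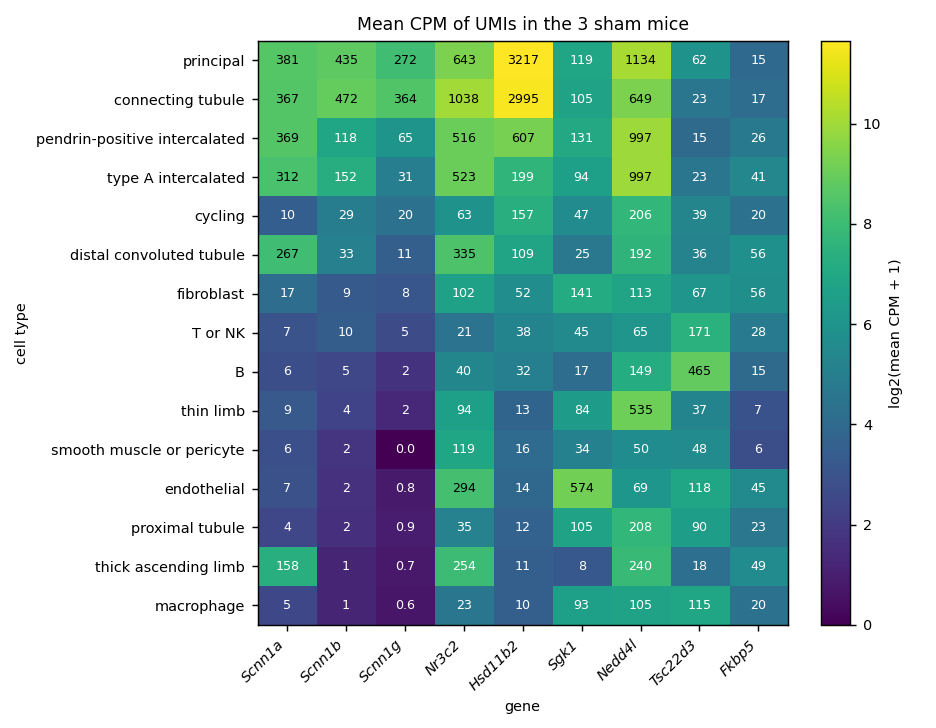
Mean level of each of the 9 genes (columns) in 15 cell types (lines of the map) over the 3 sham mice; numbers are mean CPM of UMIs, and the colour scale is log2(mean CPM + 1). Scnn1b, Scnn1g and Hsd11b2 are highest in principal and connecting tubule cells, Scnn1a reaches the thick ascending limb at 158 CPM, and Sgk1 is highest in endothelial cells at 574 CPM.

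The receptor gene Nr3c2 was highest in CNT, at 1038 ± 179 CPM, above PC at 643 ± 87.9, which overlapped with type A intercalated cells at 523 ± 47.8, followed by pendrin-positive intercalated cells (516 ± 91.8), DCT (335 ± 99.2), endothelial cells (294 ± 29.8) and TAL (254 ± 25.8). Nedd4l was highest in PC (1134 ± 144 CPM) and was close to that level in type A (997 ± 97.4) and pendrin-positive (997 ± 84.9) intercalated cells, while CNT, at 649 ± 66.1, lay below them without overlap. The steroid-induced genes had their highest levels outside PC and CNT. Sgk1 was highest in endothelial cells at 574 ± 112 CPM, with no overlap with the next type, and PC and CNT had 119 ± 38.1 and 105 ± 55.6. Tsc22d3 was highest in B cells at 465 ± 150 CPM, with 62.1 ± 14.8 in PC. Fkbp5 was highest in DCT, at 55.9 ± 5.07 CPM, followed by fibroblasts (2 to 14 UMIs per mouse), TAL and endothelial cells, each of which overlapped with the next, while PC had 14.7 CPM. By number of UMIs, 58.3% of all Sgk1 UMIs, 76.3% of Tsc22d3 UMIs and 57.4% of Fkbp5 UMIs of the sham mice came from proximal tubule cells, the most frequent cells of the samples, whereas PC and CNT together held most of the Hsd11b2 UMIs (43.6% and 31.4%).

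Genes with the most similar pattern over the 15 cell types were taken by Pearson correlation of the mean log2(CPM + 1) in sham mice, among 11492 genes with at least 20 CPM in some type. Scnn1g and Hsd11b2 were each other's closest gene (r = 0.988), and Scnn1b followed both (0.979 with Scnn1g and 0.976 with Hsd11b2). For Scnn1a the closest genes were Tmem213 (0.987), Tspan1 and Slc16a5. The closest genes were Micall1 for Nr3c2 (0.944), Pts for Nedd4l (0.948), Rcl1 for Tsc22d3 (0.927), Pnp for Sgk1 (0.884) and Prmt3 for Fkbp5 (0.757). The points share libraries and depth, so these values only describe likeness.

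In PC, the beta and gamma subunits of ENaC, the receptor gene and Nedd4l were lower in DOCA-salt mice, Fkbp5 was higher, and the alpha subunit and Hsd11b2 showed no detectable change. Of the 9 genes, 5 were called (1 higher, 4 lower) by edgeR's quasi-likelihood test at an adjusted p below 0.05, where 7.65% of all 10380 genes tested were called (4.42% higher, 3.23% lower). The median log2 fold change over the 9 genes was -0.055, and over all genes 0.00. PC of the 2 groups lay mostly in different clusters. Cluster 3 held 47.6 to 60.5% and cluster 4 held 29.3 to 39.2% of the PC of sham mice. Cluster 11 held 76.1 to 87.4% of the PC of DOCA-salt mice and 0.488 to 1.59% of those of sham mice, so each comparison in PC also sets these clusters against each other. In cells pooled over sham mice, cluster 3 had 633 CPM of Scnn1b, 375 of Scnn1g and 560 of Scnn1a, and cluster 4 had 240, 183 and 234. Cluster 11 of DOCA-salt mice had 242, 162 and 408 CPM of the same genes. Nr3c2 and Nedd4l were at 753 and 1458 CPM in cluster 3, 605 and 873 in cluster 4, and 457 and 634 in cluster 11.

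Scnn1g was at 259, 273 and 283 CPM in sham mice 1 to 3, and at 169, 143 and 155 CPM in DOCA-salt mice 1 to 3. The groups did not overlap, and the log2 fold change was -0.75 (SE 0.13, adjusted p = 0.00371, edgeR). Scnn1b was at 485, 281 and 539 CPM in sham mice and at 237, 284 and 200 in DOCA-salt mice. Here the groups overlapped, since sham mouse 2 lay below DOCA-salt mouse 2, and the log2 fold change was -0.80 (SE 0.23, adjusted p = 0.0499). Scnn1a was at 379, 409 and 354 CPM in sham mice and at 455, 389 and 326 in DOCA-salt mice, with a log2 fold change of 0.09 (SE 0.15, adjusted p = 0.769). DOCA-salt mouse 1 was the highest and DOCA-salt mouse 3 the lowest of all 6 mice for this subunit.

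Nr3c2 was at 546, 718 and 666 CPM in PC of sham mice and at 410, 417 and 461 in those of DOCA-salt mice, without overlap, and its log2 fold change was -0.53 (SE 0.15, adjusted p = 0.0491). This call and that of Scnn1b sat just under the threshold. That of Nr3c2 was lost without any single mouse other than sham mouse 1 (log2 fold changes of -0.592 to -0.461), and that of Scnn1b without sham mouse 1 or 3 or DOCA-salt mouse 1 or 3 (-0.779 to -0.613). Hsd11b2 was at 2623, 4044 and 2985 CPM in sham mice and at 3727, 2398 and 2818 in DOCA-salt mice. The order of the mice was mixed, with a log2 fold change of -0.06 (SE 0.19, adjusted p = 0.902).

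Nedd4l, the ligase gene, was at 975, 1170 and 1256 CPM in PC of sham mice and at 511, 592 and 695 CPM in PC of DOCA-salt mice. The groups were separated by a wide margin, with a log2 fold change of -0.86 (SE 0.17, adjusted p = 0.00697). Sgk1, the kinase gene that acts on NEDD4L, was at 156, 122 and 79.8 CPM in sham mice and at 233, 158 and 168 in DOCA-salt mice. All 3 DOCA-salt mice lay above all 3 sham mice, by a small gap, and the log2 fold change of 0.69 (SE 0.21) did not pass the test (adjusted p = 0.063), although it did without sham mouse 1 (0.92, adjusted p = 0.0301) and by DESeq2 (0.708, adjusted p = 0.0352), which called 6 of the 9 genes and 3.14% of all genes in PC. Fkbp5 was at 18.9, 15.5 and 9.51 CPM in sham mice (40, 33 and 18 UMIs) and at 33.6, 31.0 and 32.1 in DOCA-salt mice (54, 58 and 52 UMIs), without overlap and with a log2 fold change of 1.18 (SE 0.24, adjusted p = 0.00893). Tsc22d3 was at 58.2, 78.5 and 49.7 CPM in sham mice and at 130, 57.6 and 76.5 in DOCA-salt mice, which overlapped (log2 fold change 0.55, SE 0.25, adjusted p = 0.215).

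**Figure D2:**
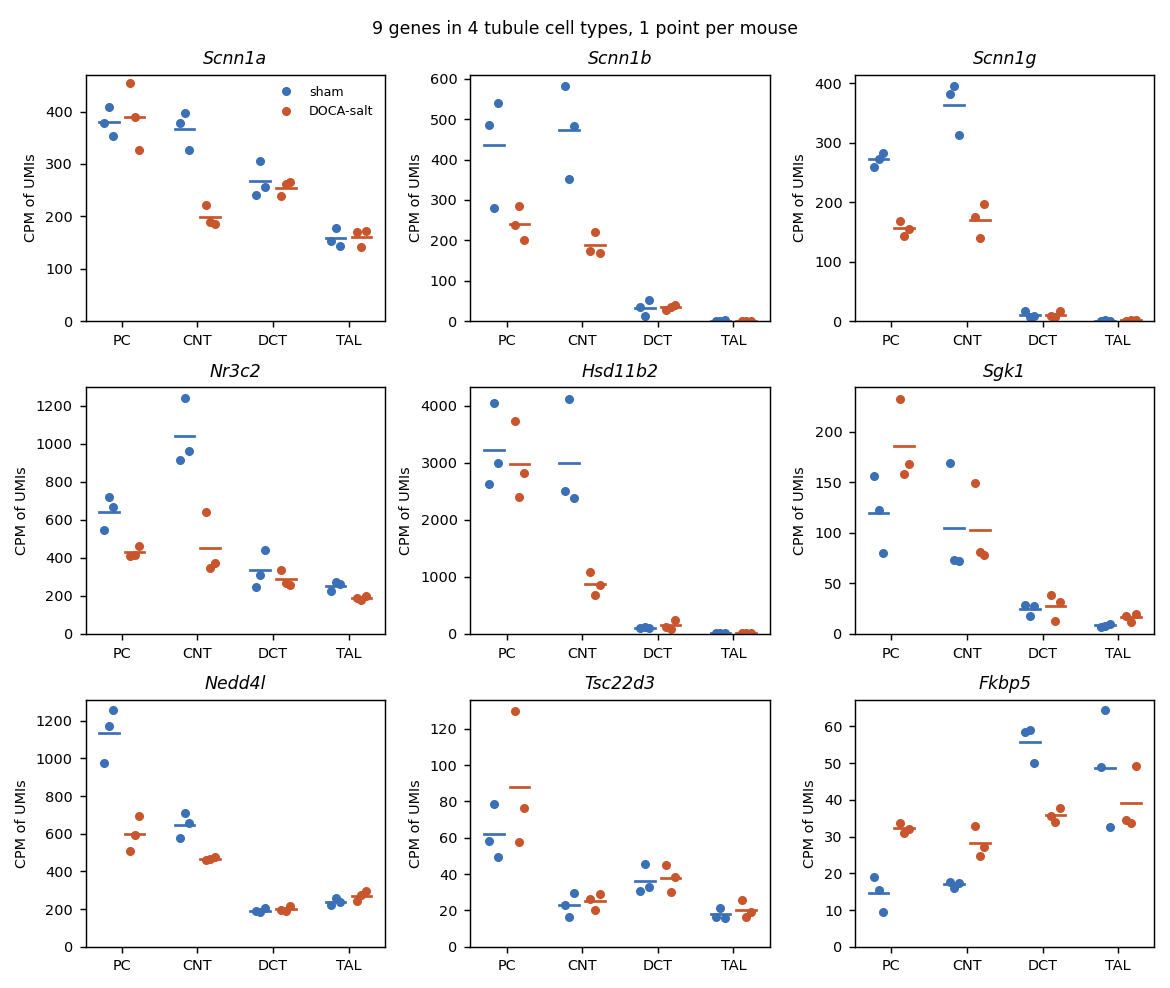
Level of each gene (CPM of UMIs, linear axes from 0) in principal (PC), connecting tubule (CNT), distal convoluted tubule (DCT) and thick ascending limb (TAL) cells; each point is the sum of 1 mouse, and the bars are the means of 3 sham (blue) and 3 DOCA-salt (red) mice. In PC the groups do not overlap for Scnn1g (143 to 169 against 259 to 283 CPM), Nr3c2, Nedd4l, Sgk1 and Fkbp5, and Scnn1a and Hsd11b2 overlap there but not in CNT.

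Markers of other cells moved with the groups in PC as well. The summed level of 6 macrophage markers was 2.82 to 8.45 CPM in sham mice and 24.9 to 67.2 CPM in DOCA-salt mice, where none of them was at 0, and that of 4 monocyte markers was 2.84 to 3.29 against 19.3 to 45.4 CPM. The PC marker Aqp2 had means of 8168 and 7307 CPM, and Aqp4 of 672 and 1604 CPM, in sham and DOCA-salt mice. The part of these differences in the results was not tested. In cluster 6, which both groups held (15 to 22 cells per mouse), 1 of 8 genes tested was called, where 0.684% of all genes tested were. This was Scnn1a, at 39.2, 16.9 and 66.4 CPM in sham mice (11, 4 and 9 UMIs) and at 436, 109 and 243 in DOCA-salt mice (79, 32 and 37 UMIs). Its log2 fold change was 2.79 (SE 0.51, adjusted p = 0.02, edgeR). The sham levels were near the floor, since a count of 0 would allow up to 10.7, 12.7 and 22.1 CPM in these mice. Scnn1b, Scnn1g and Nedd4l were not called there, and their log2 fold changes were 1.11, 1.00 and -0.12, against the negative and called values of PC as a whole. Sgk1 was not called there either, at -0.45 against 0.69 in PC as a whole. Fkbp5 was not tested in cluster 6, with 4, 1 and 1 UMIs in sham mice and 0, 1 and 0 in DOCA-salt mice. By edgeR, 4 of the 8 genes had an unadjusted p below 0.05 (Scnn1a, Scnn1b, Scnn1g and Hsd11b2), all of them higher. Pooled over sham mice, cluster 6 had 36.8 CPM of Scnn1a and 950 of Hsd11b2. Clusters 3 and 4 had 560 and 234 CPM of Scnn1a, and 3930 and 2965 of Hsd11b2.

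In CNT, all 3 ENaC subunits, Nr3c2, Hsd11b2 and Nedd4l were lower in DOCA-salt mice, but the CNT of the groups were largely different clusters of cells. Of the 9 genes, 6 were called, all of them lower, where 22.2% of 10112 genes tested were called (11.1% higher, 11.1% lower). The median log2 fold change over the 9 genes was -1.04, and over all genes -0.01. Cluster 5 held 35.4 to 42.6% of the CNT of sham mice and 0.741 to 1.47% of those of DOCA-salt mice, and cluster 9 held 46.3 to 51.5% and 1.48 to 8.85%. Cluster 8 held 7.10 to 12.7% and 36.0 to 38.9%, and cluster 15 held at most 0.437% and 51.3 to 61.5%.

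Hsd11b2 was at 2494, 4112 and 2377 CPM in CNT of sham mice and at 1082, 684 and 863 in CNT of DOCA-salt mice. This was the largest difference among the 9 genes in CNT, with no overlap and a log2 fold change of -1.93 (SE 0.22, adjusted p = 2.47e-05, edgeR). Scnn1b was at 582, 353 and 482 CPM in sham mice and at 173, 221 and 169 in DOCA-salt mice (log2 fold change -1.50, SE 0.21, adjusted p = 0.000141). Scnn1g was at 382, 395 and 314 CPM in sham mice and at 175, 140 and 197 in DOCA-salt mice (-1.26, SE 0.16, adjusted p = 7.35e-05). Both subunits were lower in each DOCA-salt mouse than in any sham mouse. Scnn1a, which showed no detectable change in PC, was at 378, 397 and 326 CPM in CNT of sham mice and at 221, 190 and 186 in CNT of DOCA-salt mice (-1.04, SE 0.15, adjusted p = 0.000155).

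Nr3c2 was at 912, 1243 and 960 CPM in sham mice and at 641, 347 and 374 CPM in DOCA-salt mice, with a log2 fold change of -1.36 (SE 0.21, adjusted p = 0.00037). The receptor gene had its highest level of any cell type in CNT of sham mice, and DOCA-salt mouse 1 was the highest of its group. Nedd4l was at 579, 710 and 657 CPM and at 462, 464 and 476 CPM, which did not overlap (-0.63, SE 0.14, adjusted p = 0.00511). The steroid-induced genes were not called in CNT. Sgk1 was at 169, 73.0 and 72.4 CPM in sham mice and at 149, 80.8 and 78.1 in DOCA-salt mice, where mouse 1 was the highest of each group (-0.18, SE 0.32, adjusted p = 0.74). Fkbp5 was at 17.7, 16.0 and 17.4 CPM in sham mice and at 32.8, 24.8 and 27.2 in DOCA-salt mice, without overlap (0.57, SE 0.22, adjusted p = 0.0768), and Tsc22d3 was between 16.6 and 29.7 CPM in all 6 mice (-0.08, SE 0.25).

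The 4 CNT clusters carried the 9 genes at different levels. In cells pooled over sham mice, cluster 5 had 3595 CPM of Hsd11b2, 550 of Scnn1b, 481 of Scnn1g and 1136 of Nr3c2, and cluster 9 had 3028, 468, 295 and 1033 CPM of the same genes. In the 24 cells of cluster 9 from DOCA-salt mice (2 to 12 per mouse), these genes were at 3434, 356, 405 and 1067 CPM. Of these, only Scnn1b was lower than in sham mice, and the difference was not tested. Cluster 8 had lower levels already in sham mice, at 94.8, 132, 71.6 and 613 CPM. Cluster 15 of DOCA-salt mice had 1030 CPM of Hsd11b2, 197 of Scnn1b, 163 of Scnn1g and 367 of Nr3c2. The clusters also differed in their markers. The PC marker Aqp2 was at 1644 CPM in cluster 5, 1081 in cluster 9, 243 in cluster 15 and 19.5 in cluster 8, and the DCT marker Slc12a3 was at 4593 CPM in cluster 8 and 226 in cluster 15. Of the CNT markers, Calb1 was at 6249 CPM in cluster 8, 2710 in cluster 5, 2852 in cluster 9 and 1257 in cluster 15. In sham mice, Hsd11b2 and Fkbp5 (54.2 CPM) of cluster 8 were near the means of DCT (109 and 55.9 CPM). The DCT mean of Hsd11b2 joined unlike clusters, however. Pooled over sham mice, DCT clusters 0, 1 and 10 had 10.0, 21.7 and 754 CPM of it, and none was near cluster 8. Scnn1b, Scnn1g and Nr3c2 of cluster 8 lay above those of DCT (32.8, 10.6 and 335 CPM). Whether cluster 8 belongs to CNT or to DCT was not tested, and the CNT sums include it.

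Within cluster 8, which each mouse held (13 to 29 cells in sham mice, 44 to 49 in DOCA-salt mice), none of the tested genes was called lower, and Hsd11b2 was higher in DOCA-salt mice. Its level was 63.4, 125 and 103 CPM in sham mice and 415, 237 and 373 in DOCA-salt mice, a log2 fold change of 1.63 (SE 0.28, adjusted p = 0.000288) in the direction opposite to that over all CNT. In this cluster 1 of 8 genes tested was called, where 4.2% of all genes tested were. Scnn1g was at 127, 0 and 67.2 CPM in sham mice (where a count of 0 in mouse 2 allows up to 25.0 CPM) and at 136, 118 and 196 in DOCA-salt mice (0.83, SE 0.38, adjusted p = 0.298). Sgk1 was at 46.1, 25.0 and 40.3 CPM in sham mice and at 76.8, 40.8 and 44.2 in DOCA-salt mice (0.30, adjusted p = 0.836), and Fkbp5 was at 49.9 to 57.7 CPM and at 21.9 to 29.8 CPM (-1.31, SE 0.40, adjusted p = 0.0526). Scnn1a (-0.26), Scnn1b (0.13), Nr3c2 (-0.29) and Nedd4l (-0.53) were not called. The clusters were formed from all variable genes of these cells, so neither the comparison over all CNT nor that within cluster 8 is independent of the clustering.

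**Figure D3:**
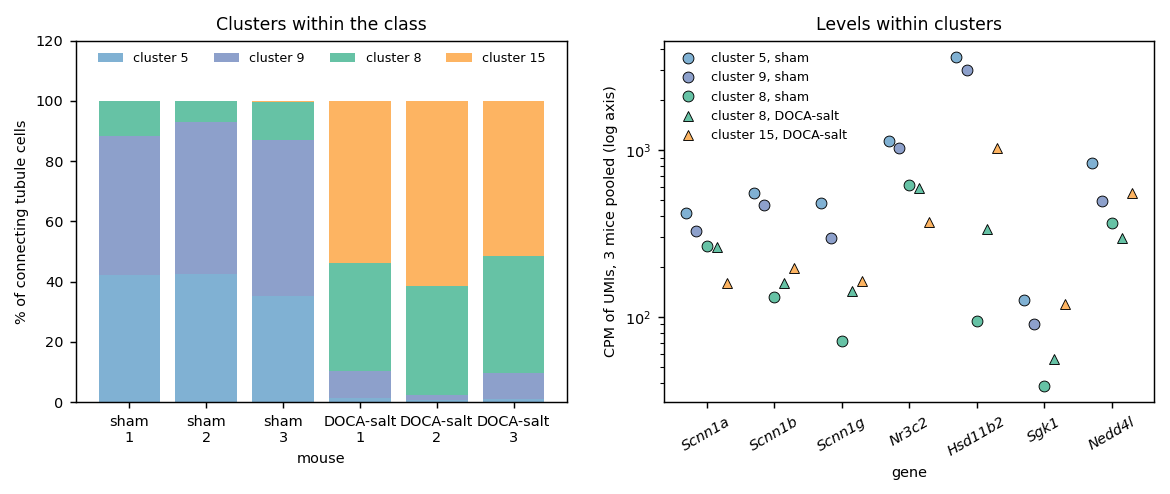
Left, the share of the CNT of each mouse (% of cells) in clusters 5, 9, 8 and 15; right, level of 7 genes within these clusters (CPM of UMIs, cells of 3 mice pooled, log axis) in sham (circles) and DOCA-salt (triangles) mice. Cluster 5 holds 35.4 to 42.6% of the cells in sham mice and at most 1.47% in DOCA-salt mice, and Hsd11b2 is at 3595 CPM in cluster 5 but at 94.8 (sham) and 336 CPM (DOCA-salt) in cluster 8.

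Markers moved with the groups in CNT. The summed level of the 6 PC markers was 2178 to 2386 CPM in sham mice and 607 to 737 CPM in DOCA-salt mice, with no marker at 0, and that of the 6 DCT markers was 1542 to 2025 against 2328 to 2638 CPM. Among the CNT markers, Klk1 had means of 15100 and 3514 CPM, S100g of 25354 and 12635, Trpv5 of 571 and 320, Calb1 of 3516 and 2542, and Slc8a1 of 8988 and 14629 CPM in sham and DOCA-salt mice. The 4 monocyte markers summed to at most 2.81 CPM in sham mice and to 56.8 to 92.2 CPM in DOCA-salt mice, where 2 or 3 of them were at 0. The part of these shifts in the results was not tested. When CNT were instead taken cell by cell from their own markers (1286 cells of sham and 847 of DOCA-salt mice, of which 35.6% and 32.7% had been clustered as CNT), 1 gene was called, Scnn1b (-1.075), where 3.27% of all genes tested were. The log2 fold changes of the 5 genes no longer called were -1.887 for Hsd11b2, -1.141 for Scnn1g, -0.990 for Nr3c2, -0.385 for Nedd4l and -0.326 for Scnn1a.

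Because the border between PC and CNT could not be fixed independently, the cells of both were also summed together. In that sum 6 of the 9 genes were called (1 higher, 5 lower), where 14.2% of all genes tested were (7.85% higher, 6.37% lower). Scnn1b (log2 fold change -1.11, SE 0.21, adjusted p = 0.00415), Scnn1g (-0.98), Nr3c2 (-0.90), Hsd11b2 (-0.72) and Nedd4l (-0.81) were lower and Fkbp5 (0.90) was higher, while Scnn1a (-0.38, adjusted p = 0.0676) and Sgk1 (0.33, adjusted p = 0.409) were not called.

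The change itself differed between PC and CNT for 6 of the 9 genes, where 16% of 11128 genes differed. This was tested with both sums of each mouse in a model with the mouse as a block. For Hsd11b2 the log2 fold change in PC was higher than that in CNT by 1.84 (SE 0.12, adjusted p = 6.62e-12), and for Scnn1a by 1.12 (SE 0.13, adjusted p = 1.57e-07). The corresponding differences were 0.85 for Nr3c2 (SE 0.17), 0.85 for Sgk1 (SE 0.19), 0.70 for Scnn1b (SE 0.14) and 0.50 for Scnn1g (SE 0.15, adjusted p = 0.018). The difference of Scnn1g was not called without sham mouse 1 (0.402), sham mouse 2 (0.456), DOCA-salt mouse 1 (0.469) or DOCA-salt mouse 2 (0.432), nor that of Sgk1 without sham mouse 1 (0.586, adjusted p = 0.0539). With cells by their own markers 1 gene, Hsd11b2, was called for this difference, where 1.15% of all genes were. Nedd4l, Tsc22d3 and Fkbp5 were not called for a difference between PC and CNT. Without sham mouse 2, however, 6 genes were still called (11.8% of all genes), so a gene among these gained a call as Scnn1g lost its own. In the main fit, Nedd4l and Fkbp5 were the genes that set PC apart from the more proximal segments. Other settings called from 1 gene (no mouse block, 2.25% of all genes) to 4 (cells by their own markers, 2.29%) between PC and DCT. The log2 fold change of Nedd4l was lower in PC than in DCT (a difference of -0.80, SE 0.14) and than in TAL (-0.98, SE 0.11), and that of Fkbp5 was higher by 1.98 (SE 0.25) and by 1.57 (SE 0.22). Of the 9 genes, these 2 were called for a difference between PC and DCT, where 7.05% of all genes were, and between PC and TAL, where 7.1% were.

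**Figure D4:**
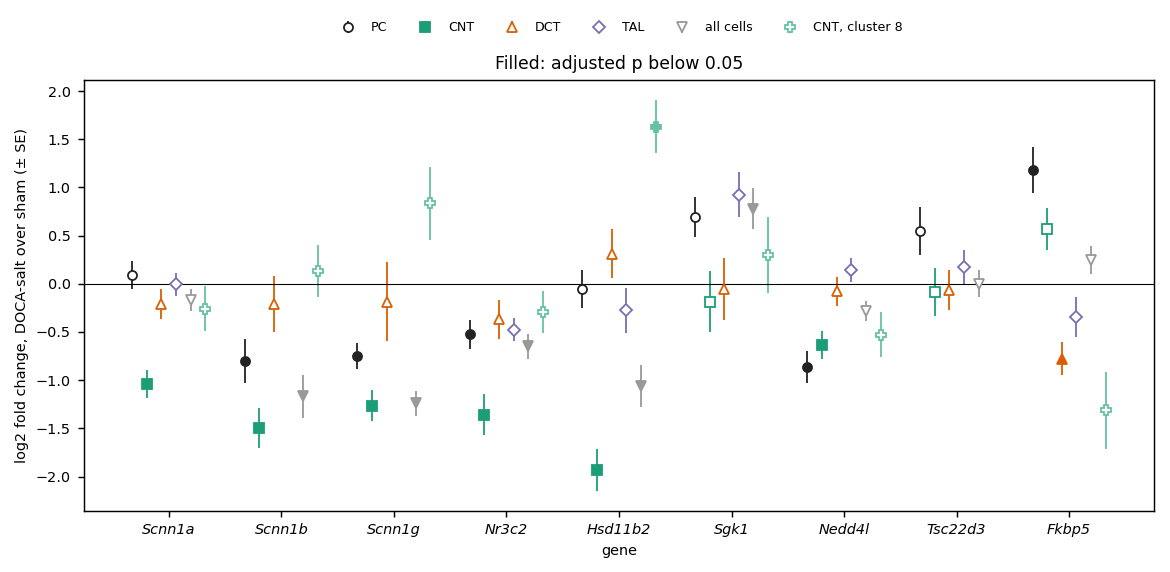
Log2 fold change of DOCA-salt over sham mice (± SE, edgeR, n = 3 per group) for each gene in PC, CNT, DCT, TAL, all cells of the kidney and cluster 8 of CNT; filled symbols have an adjusted p below 0.05. Hsd11b2 lies at -1.93 in CNT, -0.06 in PC and 1.63 in CNT cluster 8, and Fkbp5 at 1.18 in PC and -0.78 in DCT.

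The balance of the 3 subunits was followed as the share of each among all ENaC subunit UMIs of a mouse, a ratio that does not depend on depth or scaling (UMI shares are not shares of transcripts, since capture differs between genes). In PC, the share of Scnn1a was 35.4% ± 6.37 (SD, n = 3) in sham mice and 49.5% ± 2.96 in DOCA-salt mice. The ranges, 30.1 to 42.5% and 47.6 to 52.9%, did not overlap, and the difference of 14.0 percentage points had an exact two-sided permutation p of 0.1, the smallest that 3 against 3 mice can give. Scnn1b had 39.4% ± 8.98 and 30.6% ± 3.81, which overlapped (exact permutation p = 0.3), and Scnn1g had 25.2% ± 2.81 and 19.97% ± 2.67 (exact permutation p = 0.1). In CNT the share of Scnn1a was 30.6% ± 3.53 and 35.7% ± 2.78, which overlapped (exact permutation p = 0.3). With CNT taken cell by cell from their own markers it was 34.8% ± 1.49 and 47.9% ± 1.38, without overlap, and the difference of 13.1 percentage points (exact permutation p = 0.1) was close to that in PC. Most of the cells taken in this way had not been clustered as CNT. At least 608 subunit UMIs per mouse lay behind each share in PC and CNT. In DCT and TAL nearly all subunit UMIs were Scnn1a in both groups, with 85.9% and 85.2% in DCT (at least 258 UMIs per mouse) and 98.7% and 98.9% in TAL. With DCT taken by their own markers, the Scnn1a share was 89.7% ± 4.82 in sham and 83.9% ± 0.228 in DOCA-salt mice, and the Scnn1g share 1.87% ± 0.676 and 4.58% ± 0.796, both without overlap (exact permutation p = 0.1 each).

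**Figure D5:**
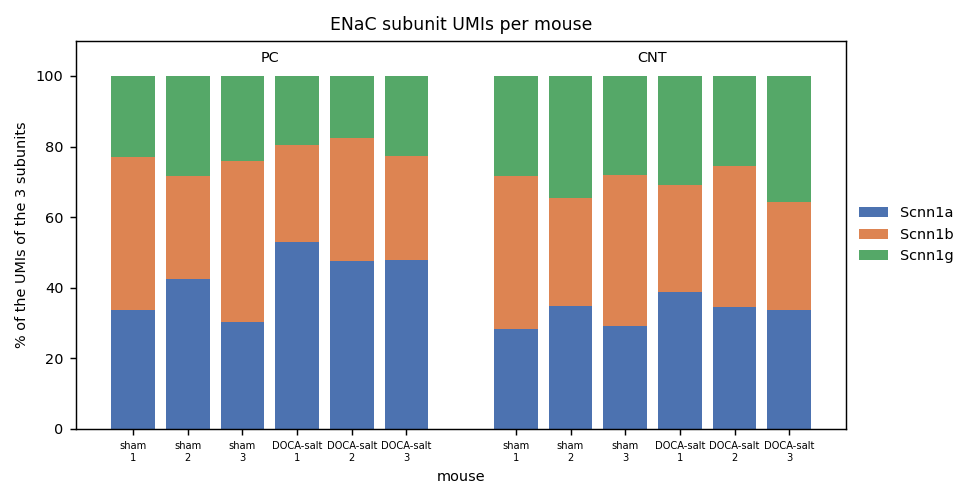
Share of Scnn1a, Scnn1b and Scnn1g among the UMIs of the 3 ENaC subunits (%) in PC and CNT of each mouse. In PC the Scnn1a share is 30.1 to 42.5% in sham mice and 47.6 to 52.9% in DOCA-salt mice; in CNT as clustered the groups overlap (28.2 to 34.7% and 33.7 to 38.9%), which they did not with CNT taken by their own markers (33.4 to 36.4% and 46.3 to 49.0%, not drawn).

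The share of cells with a UMI of each subunit was compared after thinning each cell to 1000 UMIs, since cells of DOCA-salt mice were deeper (PC medians of 8482.5 to 10040 UMIs in sham and 11695 to 17142 in DOCA-salt mice). In PC, Scnn1g was found in 23.3% ± 0.951 and 15.3% ± 0.312 of cells (79.6% and 73.6% unthinned), without overlap, and with the smallest exact permutation p of 0.1. Scnn1b was found in 33.5% ± 8.41 and 22.3% ± 2.82 of PC (exact permutation p = 0.2), and Scnn1a in 30.7% ± 1.58 and 30.8% ± 3.62 (exact permutation p = 1). Unthinned, these shares were 87.3% and 84.9% for Scnn1b and 83.0% and 82.6% for Scnn1a. In CNT all 3 subunits were in fewer thinned cells of DOCA-salt mice without overlap (exact permutation p = 0.1 each): 28.9% and 17.5% for Scnn1a, 36.3% and 17.8% for Scnn1b, and 28.8% and 16.4% for Scnn1g (unthinned 81.5% and 70.4%, 85.6% and 71.5%, 76.2% and 63.9%). Proximal tubule cells, which do not use ENaC, gave the background of free RNA, at most 0.548% of thinned cells for any subunit. Cells under 1000 UMIs were left out, 11 or fewer per mouse.

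In DCT, 1 of the 9 genes was called, Fkbp5, and it was lower, where 6.66% of 9680 genes tested were called (2.62% lower). Fkbp5 was at 58.4, 59.1 and 50.0 CPM in sham mice and at 35.5, 34.1 and 37.8 in DOCA-salt mice, without overlap (log2 fold change -0.78, SE 0.17, adjusted p = 0.00776), the direction opposite to that in PC. This call was lost when cells were limited to 20% mitochondrial UMIs (-0.928, adjusted p = 0.0752), where 7.94% of all genes were called. The clusters of DCT also shifted, with cluster 2 at 27.6 to 38.0% of DCT in DOCA-salt and 1.86 to 4.09% in sham mice, and cluster 1 at 2.41 to 15.03% and 23.0 to 54.7%. In cells pooled over sham mice, cluster 1 had 69.9 CPM of Fkbp5 (71 UMIs), against 53.1 in cluster 0 and 22.0 in cluster 10, and the part of this shift in the result was not tested. In clusters 0 and 10, which both groups held, 0 of 8 genes tested were called by edgeR, and 2 had an unadjusted p below 0.05 (Hsd11b2 and Fkbp5, the latter at -0.83, adjusted p = 0.119, background 0.892%), with 0 called by DESeq2. These 2 clusters were unlike each other. In cells pooled over sham mice, cluster 10 had 754 CPM of Hsd11b2, 41.5 of Nr3c2 and 48.8 of Nedd4l. Cluster 0 had 10.0, 287 and 168 CPM of the same genes. Over all DCT, Scnn1a was at 241, 306 and 255 CPM in sham mice and at 239, 261 and 265 in DOCA-salt mice, and Nedd4l was at 187, 182 and 206 and at 198, 193 and 215 CPM. In TAL, 7 of the genes could be tested and 0 were called by edgeR, where 3.24% of 12331 genes were, while 2 had an unadjusted p below 0.05 and 2 were called by DESeq2 (1.76% of all genes). These were Sgk1, at 6.85, 8.29 and 9.91 CPM in sham mice and 18.0, 11.8 and 19.8 in DOCA-salt mice (0.93, SE 0.23, adjusted p = 0.0554), and Nr3c2, at 225, 274 and 264 against 189, 176 and 199 CPM (-0.48, SE 0.12, adjusted p = 0.0559). Neither overlapped between groups, and both were called without sham mouse 2 (0.896 and -0.454), and Sgk1 without DOCA-salt mouse 2 (1.124).

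Over all cells of the kidney, 5 of the 9 genes were called (1 higher, 4 lower), where 17.2% of 19658 genes were (11.5% higher, 5.69% lower). In such sums fewer cells of a type and less RNA per cell cannot be told apart. Fewer PC and fewer CNT were recovered from each DOCA-salt mouse than from any sham mouse. The part of this in the sums was not tested. Scnn1g was at 18.4, 20.5 and 23.3 CPM in sham mice and at 9.83, 8.66 and 10.1 in DOCA-salt mice (log2 fold change -1.24, adjusted p = 0.0009). Scnn1b (-1.17, SE 0.23, adjusted p = 0.0107), Hsd11b2 (-1.06, SE 0.22, adjusted p = 0.0133) and Nr3c2 (-0.65, SE 0.13, adjusted p = 0.0115) were also lower in DOCA-salt mice. Sgk1 was higher, at 281, 158 and 202 CPM against 99.6, 132 and 114 in sham mice (0.78, SE 0.22, adjusted p = 0.0424), a call that was lost without sham mouse 1 or 3 or DOCA-salt mouse 1 or 3 (0.51 to 0.84). Those of Nr3c2 and Hsd11b2 were lost without DOCA-salt mouse 3 (-0.626 and -1.065). The sources of the UMIs shifted in step: CNT gave 31.4% of all Hsd11b2 UMIs in sham mice and 15.3% in DOCA-salt mice, while PC gave 43.6% and 53.5%. Fibroblasts gave 0.395% ± 0.322 of Fkbp5 UMIs in sham and 12.8% ± 6.14 in DOCA-salt mice (10 to 31 and 222 to 918 cells per mouse). Of the cells of 1 fibroblast cluster (663 cells), which had the endothelial genes Adgrl4 and Flt1 among its leading genes, 93.7% came from 1 mouse.

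Outside these 4 types, 7 of 75 pairs of gene and cell type were called (3 higher, 4 lower) in 11 further cell types, against 4.19% of all pairs. Endothelial cells (background 11.3%), the type with the highest Sgk1 level, had 507, 703 and 512 CPM in sham mice and 1004, 757 and 873 in DOCA-salt mice, without overlap (log2 fold change 0.63, SE 0.16, adjusted p = 0.0294). This call was lost without sham mouse 1 or 3 or DOCA-salt mouse 1 or 3 (0.499 to 0.632). Nr3c2 in the same cells was at 321, 299 and 262 CPM in sham mice and at 148, 140 and 127 CPM in DOCA-salt mice (-1.07, SE 0.12, adjusted p = 0.00042). The receptor gene was also called lower in PC and CNT, with limits. Its PC call was lost without any single mouse other than sham mouse 1, and its CNT call with cells by their own markers. In macrophages (background 6.11%) Sgk1 was at 84.7, 93.6 and 102 CPM in sham mice (50 to 58 UMIs) and at 171, 152 and 175 in DOCA-salt mice (387 to 585 UMIs), without overlap (0.72, SE 0.16, adjusted p = 0.0108). This call was lost without sham mouse 1 (0.621, adjusted p = 0.106) and with macrophages clustered at a finer resolution (0.156, adjusted p = 0.785).

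Pendrin-positive intercalated cells, which exchange chloride for bicarbonate, held the other 4 calls (background 8.45%). Sgk1 was lower there, at 67.0, 54.9 and 61.6 CPM against 128, 155 and 109 in sham mice (-1.03, adjusted p = 0.00102). Hsd11b2 was at 308, 320 and 366 CPM against 566, 687 and 569 (-0.81, adjusted p = 0.00271), and Nedd4l at 646, 709 and 670 CPM against 928, 1092 and 973 (-0.51, adjusted p = 0.0298). Fkbp5 was higher, at 35.1 to 39.1 CPM against 23.6 to 26.6 (0.59, adjusted p = 0.0306), as it was in PC. The calls of Nedd4l and Fkbp5 were lost without any single mouse other than sham mouse 2 (-0.565 to -0.475 and 0.525 to 0.643), and that of Hsd11b2 with double the doublet rate (-0.419). In proximal tubule cells, the main source of Sgk1 UMIs, Sgk1 was at 86.9, 118 and 110 CPM in sham mice and 339, 149 and 197 in DOCA-salt mice, but did not pass the test (1.06, SE 0.28, adjusted p = 0.0601), and Nr3c2 (-0.45, adjusted p = 0.0991) did not either. Both passed without sham mouse 2 (1.157 and -0.537), and Sgk1 without DOCA-salt mouse 2 (1.29).

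Other genes of the pathway were followed in lists, whose counts stand against the 7.65% of all genes called in PC, 22.2% in CNT, 6.66% in DCT and 3.24% in TAL. Of 10 further steroid-induced genes, 9 could be tested in PC, where 5 were called (1 higher, 4 lower), and all 10 in CNT, where 8 were called (3 higher, 5 lower), with list medians of -0.58 and -0.56 against 0.00 and -0.01 over all genes. Klf9 and Usp2, target genes of steroid receptors, were lower in PC (log2 fold changes -0.77 and -0.59), CNT (-1.13 and -0.66) and TAL (-0.60 and -0.65). Ndrg2 was lower in PC, with a mean of 3.25 CPM against 23.5 in sham mice, and in CNT (-0.88), where Per1 (-0.88) and Zbtb16 (-1.19) were lower too. Cnksr3, which encodes a scaffold that brings SGK1 to ENaC, was higher in CNT (0.84). Lcn2, an iron-binding protein gene also known as an injury marker, was higher in all 4 types, by 2.06 in PC, 6.24 in CNT, 4.68 in DCT and 3.82 in TAL, with CNT levels of 1.12 to 10.2 CPM in sham mice and 210 to 509 CPM in DOCA-salt mice. Edn1, the endothelin-1 gene, was lower in PC (-0.86) and higher in DCT (3.88), where 2 of 8 genes tested were called, both higher. DESeq2, which called 3.14% of all genes in PC, called 3 genes of this list there (Klf9, Ndrg2 and Lcn2), and not Usp2 or Edn1.

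Of 6 receptor access and chaperone genes tested, 0 were called by edgeR in PC, DCT or TAL (0, 1 and 0 at an unadjusted p below 0.05), with 0, 1 and 0 called by DESeq2, and in CNT Ncor1 (-0.54), a corepressor gene, was lower. Of 8 genes of kinase and ubiquitin control, 2 were called in PC (7.65% of all genes) and 1 in each other type (22.2% in CNT, 6.66% in DCT, 3.24% in TAL), so in CNT the share of the list lay below that of all genes. Nedd4, a relative of Nedd4l, was higher in PC (0.62) and CNT (0.48). Wnk1, a kinase gene of salt transport, was higher in PC (0.70) and lower in DCT (-0.70) and TAL (-1.03). Of 6 genes for proteases and their inhibitors that act on ENaC, 0 were called in PC by edgeR or DESeq2 (2 at an unadjusted p below 0.05 by edgeR), and Tmprss2 was lower in CNT (-0.99) and TAL (-0.62), while Spint1 was higher in DCT (0.72). Of the 4 sodium pump genes, Fxyd4 (-1.72) and Atp1b1 (-0.70) were lower and Fxyd2 (0.69) was higher in CNT, and 0 were called by edgeR in PC, DCT and TAL (2, 1 and 0 at an unadjusted p below 0.05, and 2, 0 and 0 by DESeq2). Fxyd4, a pump regulator of the collecting duct, had means in CNT of 620 CPM in sham and 211 CPM in DOCA-salt mice, and in PC of 6199.8 and 5528 CPM.

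Clock genes and early response genes were counted beside these because several steroid targets follow the time of day or respond to tissue handling. In PC, 5 of 11 clock genes tested were lower and 2 were higher (against 7.65% of all genes called), among them Dbp (-2.97), Nr1d1 (-2.27) and Npas2 (1.76). In CNT (22.2% of all genes) 6 of 11 were lower, and DESeq2, with 8.32% of all genes, called 4 of the list, in TAL (3.24%) 5 of 12 were lower and 1 was higher, and in DCT (6.66%) 0 of 11 were called by edgeR (1 at an unadjusted p below 0.05) or by DESeq2. Of 16 early response and heat shock genes, read against these same percentages of all genes, 2 were higher in PC, 3 were higher and 7 lower in CNT, 7 were higher and 1 lower in DCT, and 1 was lower in TAL. Over all cells of the kidney, 8 of 12 clock genes tested were lower and 2 were higher, where 17.2% of all genes were called. The part of the clock and early response shifts in the results for the 9 genes, and for the further steroid-induced genes, was not tested.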

How the data were processed

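Per the labels and the study's methods, the authors made 3′ single-cell libraries from whole mouse kidneys and counted UMIs per gene and barcode with Cell Ranger (9.0.0 in the submitters' processing notes, 8.0.1 in the matrix headers), and used Seurat 4.0.0 in R 4.0.3, with GRCm39. The annotation release was not given in the sources used here. The deposited counts were used without change.

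Barcodes with at least 170 genes and 500 UMIs, at most 50% mitochondrial and 5% hemoglobin UMIs were kept. Doublets were called with scrublet in scanpy 1.11.5, at an expected rate of 0.8% per 1000 cells, and removed. Cells were clustered (2000 variable genes, 30 components, 15 neighbours, Leiden resolution 1), and distal nephron cells were clustered again. Clusters were named from fixed markers, of which at least 3 had to be detected, without the 9 genes. UMIs were summed per mouse and type, filtered with filterByExpr, scaled by TMM and tested with edgeR 4.0.16 (R 4.3.3) by the quasi-likelihood test. P-values were adjusted by Benjamini-Hochberg across each whole table of tested genes. SE is the absolute log2 fold change over the square root of F. The tests were tested on simulated data, where 2-fold changes were recovered for 85% of genes in PC, 86% in CNT, 87% in DCT, 94% in TAL and 94% in whole kidney. The changed genes were drawn from genes above a floor of expected UMIs in the smallest sum, and all genes shared a common dispersion. These rates therefore do not cover genes with few UMIs or a mouse that stands apart. Other single values used exact two-sided permutation tests over mice. DESeq2 1.42.0 was an alternative. Sequences came from the GRCm39 genome.

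Levels of a gene count its 3′ UMIs, and levels are not compared between genes. Reads of Fkbp5 and of an overlapping gene could be split by the authors' counting. Separate mice are taken as replicates from the labels. The SE and SD values include the spread between mice. The upper limit given where a sum held no UMI of a gene covers counting error only. The genes, lists, markers and tests were chosen with earlier results of these data known. Named were the 9 genes, list genes that were called (1 is not reported here), and for each of the 9 the most similar genes.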

Additional observations from a re-analysis of the deposited data

Results flagged for a closer look

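The changes of 8 of the 9 genes differed between cell types by a test of the difference itself (edgeR's quasi-likelihood test of the interaction, with the mouse as a block). Over all genes tested, 16% differed between PC and CNT, 7.05% between PC and DCT and 7.1% between PC and TAL. Between PC and CNT, the log2 fold change was higher in PC by 1.84 for Hsd11b2, 1.12 for Scnn1a, 0.85 for Nr3c2, 0.85 for Sgk1, 0.70 for Scnn1b and 0.50 for Scnn1g. With cells by their own markers 1 of these 6 differences was called (Hsd11b2, where 1.15% of all genes differed), and without the mouse block 2 genes were (5.65%). The sums compared in CNT came mainly from clusters 5 and 9 in sham mice and from clusters 8 and 15 in DOCA-salt mice, and those in PC from clusters 3 and 4 and from cluster 11, so a difference between cell types and a difference between clusters cannot be told apart.

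Between PC and the segments before them, Nedd4l differed by -0.80 from DCT and by -0.98 from TAL, and Fkbp5 by 1.98 and by 1.57. The Fkbp5 sums of PC rested on 18 to 58 UMIs per mouse.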

How the results depend on the processing

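Of 721 repeated fold changes, 599 kept their direction and side of the threshold, 74 lost and 26 gained a call, and 22 reversed. Alternatives with single clusters, pooled types or another seed of the clustering were chosen after seeing the data. The other seed moved no count of the 9 genes by more than 1.5 times. The borders of the CNT clusters also moved with the numerical settings of the computer, and calls within cluster 8 other than that of Hsd11b2 moved with them. In CNT cluster 8 the log2 fold changes of Scnn1b (0.134), Scnn1g (0.834), Sgk1 (0.300), Hsd11b2 (1.631) and Fkbp5 (-1.311) reversed, and in PC cluster 6 those of Scnn1b (1.113), Scnn1g (0.999), Sgk1 (-0.451) and Hsd11b2 (1.350); the cause was not tested. Values near 0 also changed sign. These were Scnn1a in PC without DOCA-salt mouse 1 (-0.019) or pooled with CNT (-0.382), and Hsd11b2 in PC without sham mouse 2 (0.120) or DOCA-salt mouse 2 (0.062). Without each mouse in turn, Scnn1a in PC ranged over -0.019 to 0.194, Hsd11b2 in PC over -0.233 to 0.120, Sgk1 in CNT over -0.544 to 0.374 and Tsc22d3 in CNT over -0.286 to 0.165. Sgk1 in CNT became 0.374 without sham mouse 1, 0.058 with cells by their own markers, 0.048 with double the doublet rate and 0.329 pooled with PC. Tsc22d3 in CNT became 0.089 with library size only, 0.165 without sham mouse 3, 0.044 without DOCA-salt mouse 2 and 0.266 pooled with PC. Fkbp5 in DCT became 0.380 pooled with CNT and PC. The difference in the share of PC with Scnn1a became -0.014 percentage points without sham mouse 1, -0.575 without sham mouse 3 and -1.81 without DOCA-salt mouse 1.

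Without each mouse in turn, 3 to 5 genes were called in PC (3.6 to 11.1% of all genes), 6 to 6 in CNT (15.8 to 24%), 1 to 1 in DCT (3.14 to 9.3%), 0 to 2 in TAL (1.32 to 7.45%) and 2 to 5 in whole kidney (8.66 to 23.2%). The differences were called for 4 to 6 genes between PC and CNT (11.2 to 13.8%), 2 to 3 between PC and DCT (4.78 to 5.98%) and 2 to 2 between PC and TAL (3.88 to 6.87%), and 3 to 18 pairs were called in other types (2.18% and 7.01% of all pairs in these fits, without sham mouse 1 and sham mouse 2). The Scnn1a share of subunit UMIs differed by 11.4 to 17.6 percentage points in PC and by 3.47 to 7.08 in CNT. The difference in the share of thinned cells was -1.81 to 1.79 for Scnn1a, -15.9 to -8.05 for Scnn1b and -8.46 to -7.53 for Scnn1g in PC, and -12.7 to -10.2, -22.2 to -15.4 and -14.6 to -10.5 in CNT.

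With cells by their own markers, 1 gene was called in CNT (3.27% of all genes), 1 in TAL (2.55%), 1 between PC and CNT (1.15%) and 4 between PC and DCT (2.29%). PC cluster 6 gave 1 call (0.684%), CNT cluster 8 gave 1 (4.2%) and DCT clusters 0 and 10 gave 0 (0.892%). Pooled with CNT and PC, DCT gave 5 (12.9%). At 20% mitochondrial UMIs 0 were called in DCT (7.94%) and 1 in TAL (7.98%), and in TAL 1 with library size only (3.59%), 2 without the filter (4.32%) and 2 with DESeq2 (1.76%). Without the filter 20 pairs were called in other types (3.69% of all pairs) and 4 genes differed between PC and DCT (3.93%), as did 4 at Leiden resolution 2 (7.2%). Without the mouse block, 2 genes differed between PC and CNT (5.65%) and 1 between PC and DCT (2.25%). Scaling by library size only moved the median of all genes by 0.166 in CNT, 0.147 in DCT and 0.118 in whole kidney.

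The replicate numbers did not pair the mice: deviations of same-numbered mice correlated at -0.413 to -0.019 in the 5 main sums, and no sample correlated best with its own number. With the replicate block 4 genes were called in PC (4.31%), 2 in whole kidney (10.4%) and 3 pairs in other types (1.99%). Calls over all genes with that block were 447 in place of 794 in PC, 416 in place of 645 in DCT, 138 in place of 399 in TAL and 2043 in place of 3387 in whole kidney. Without the filter they were 1293 in PC, 999 in DCT and 943 in TAL, and with cells by their own markers 390 in place of 2246 in CNT and 237 in DCT. In TAL they were 200 with the other seed, 203 at Leiden resolution 2 and 210 with double the doublet rate. Leaving out a mouse gave 386 to 1191 in PC, 323 to 961 in DCT, 164 to 951 in TAL and 1745 to 4718 in whole kidney.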
